A study of Homo sapiens with 5 samples.

Results

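The cleavage factor Im (CFIm) complex was followed through the mRNAs of its 3 subunits in human embryonic stem cells edited in one of them. NUDT21 encodes the small subunit CFIm25, CPSF6 the large subunit CFIm68 and CPSF7 the large subunit CFIm59. The rows with these gene symbols were taken from the deposited table, which gave 3 of the 33857 genes listed, each on a single row and each within the 19232 genes tested. Poly(A+) RNA was sequenced from 5 samples of H9, a widely used line of human embryonic stem cells. The 2 mock control samples were clones transfected with the empty CRISPR/Cas9 vector, and the 3 CFIm25-m samples were clones transfected with that vector carrying guide RNAs against NUDT21. All were selected with puromycin and grown undifferentiated in mTeSR medium on Matrigel. The labels call the edited samples both knockdown and knockout. According to the study's methods and text, each edited clone kept an in-frame allele and a reduced amount of CFIm25 protein shortened at its N-terminus, so these samples are not nulls. Each sample stands for 1 clone, so p-values measure the spread between clones and do not separate the edit from other differences between single-cell clones.

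CFIm is one of the protein complexes that cut a pre-mRNA and add its poly(A) tail. A dimer of CFIm25 binds UGUA motifs upstream of the cleavage site, and each CFIm25 of the dimer carries a large subunit, CFIm68 or CFIm59. The large subunits have an RNA recognition motif that holds the RNA, and an arginine- and serine-rich region that contacts the other processing factors, among them FIP1L1 of the cleavage and polyadenylation specificity factor. In many cell types loss of CFIm25 or CFIm68 is known to move cleavage toward sites nearer the stop codon, while loss of CFIm59 does so far less.

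The design of the edit is given by its 3 guide RNAs, which are printed because they show where NUDT21 was targeted. They were read from the study's oligonucleotide list and matched to chromosome 16 of GRCh37, where each had 1 perfect match. The 20 bases of the guide are in lower case and the adjacent PAM, read from the genome, is in capitals.
g1: cagccggtctgcgagcgattGGG
g2: ccgaactgagtgaccccccgGGG
g3: ccaatcgctcgcagaccggcTGG
Guide g1 lies on the plus strand at chr16:56485077-56485096, g2 on the plus strand at chr16:56485053-56485072 and g3 on the minus strand at chr16:56485079-56485098. NUDT21 is on the minus strand, so g1 and g2 read against the gene and g3 reads along it. Guides g1 and g3 share 18 bases on opposite strands. All fall in the coding part of exon 1 of the MANE Select transcript ENST00000300291.10, which has 7 exons and 227 codons. Cas9 cuts 3 bases from the PAM, which puts the cut after coding base 21 for g1, after base 33 for g3 and after base 45 for g2. The cuts thus lie directly before codons 8, 12 and 16, and span 24 of the 116 coding bases in exon 1. The labels do not say which guide made which clone, so no clone was set against its guide.

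NUDT21 mRNA was lower in each edited clone, while neither large subunit passed the test in either direction. The values are normalized counts, that is read counts per gene after the authors' division by each sample's size factor. NUDT21 stood at 6503 in the first mock control and 6398 in the second, against 4035, 3281 and 3400 in the CFIm25-m clones 1, 2 and 3. The clones therefore kept 62.6%, 50.9% and 52.7% of the mock control mean, and the groups did not overlap. The mean of the mock controls was 6451 ± 74.0 (SD, n = 2), and that of the clones was 3572 ± 405 (SD, n = 3). The log2 fold change was -0.86 (95% interval -1.10 to -0.62), a fold of 0.552, with an adjusted p of 0.00431 from limma-trend, a linear model of log2 values fitted to all tested genes with a variance that depends on abundance. The threshold was an adjusted p below 0.05. Of the 3 subunits, NUDT21 alone passed the threshold. In all, 1.88% of tested genes passed it, 0.936% as lower and 0.941% as higher in CFIm25-m. By p-value NUDT21 ranked 56 of 19232, while by size of change it ranked 224 among the 361 genes called. Of the 499 tested genes with a higher mock control mean, 11 passed the threshold. The call rested on both mock control clones. With only mock control replicate 2 the log2 fold change was -0.85 at an adjusted p of 0.0618, and with only replicate 1 it was -0.87 at 0.0557, with the lone mock control assumed to vary like the clones. Without the mean-variance trend in limma the adjusted p was 0.106.

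CPSF6, the large subunit CFIm68, had higher values in the clones and did not pass the test. Its normalized count was 5204 and 5183 in mock control replicates 1 and 2, against 5678, 5748 and 5968 in the CFIm25-m clones 1, 2 and 3. All 3 clones lay above both mock controls, at 109%, 111% and 115% of their mean. The means were 5194 ± 14.6 (SD, n = 2) and 5798 ± 152 (SD, n = 3), a log2 fold change of 0.16 (95% interval -0.04 to 0.35, adjusted p = 0.425, limma-trend). This interval spans folds from 0.976 to 1.28.

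CPSF7, the large subunit CFIm59, had lower values in the clones and did not pass the test either. Its normalized count was 2479 and 2539 in mock control replicates 1 and 2, against 2173, 2175 and 2368 in the CFIm25-m clones 1, 2 and 3. The clones lay below both mock controls, at 86.6%, 86.7% and 94.4% of their mean, with replicate 3 nearest to the mock controls. The means were 2509 ± 42.3 (SD, n = 2) and 2239 ± 112 (SD, n = 3), a log2 fold change of -0.17 (95% interval -0.37 to 0.03, adjusted p = 0.421, limma-trend). The interval spans folds from 0.776 to 1.02. In all 3 subunits the groups did not overlap, as in 36.8% of tested genes. Unadjusted, p was 0.0982 for CPSF6 and 0.0956 for CPSF7, and 53.9% and 52.1% of tested genes had a larger change than these subunits.

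The clones differed among themselves in NUDT21 by more than the counting of reads allows. NUDT21 was covered by 4026, 3644 and 3535 reads in CFIm25-m replicates 1, 2 and 3, and by 5642 and 6630 in the mock controls. The exact 95% Poisson interval of the normalized count ran from 3911 to 4162 in replicate 1, above those of replicate 2 (3175 to 3389) and replicate 3 (3289 to 3514), which overlapped each other. The mock control intervals, 6334 to 6675 and 6245 to 6554, also overlapped. These intervals cover counting error only. NUDT21 had a coefficient of variation of 11.4% among the clones, against 2.61% for CPSF6 and 5.01% for CPSF7. Between the mock controls it was 1.15%, 0.281% and 1.69%. The counting error of a single value was between 1.23% and 2.16% for all 3 genes.

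Clone by clone, NUDT21 lay farther from the mock controls than most tested genes, and the large subunits lay in the bulk. The log2 difference of NUDT21 from the mock control mean was -0.68 in replicate 1, -0.98 in replicate 2 and -0.92 in replicate 3. Differences at least as large in size were held by 11.9%, 5.78% and 10.1% of tested genes in these clones. These shares pool tested genes of all abundances. Replicate 3, whose differences were more widely spread over all genes, had a larger share than replicate 2 at a difference of similar size. For CPSF6 the differences were 0.13, 0.15 and 0.20, and at least 57.3% of tested genes were as far from the mock controls in each clone. For CPSF7 they were -0.21, -0.21 and -0.08, with at least 45.5% of tested genes as far. The clone with the largest drop of NUDT21 was thus not the clone farthest from mock control in CPSF6, which was replicate 3, and CPSF7 was almost equal in replicates 1 and 2 although NUDT21 was not.

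**Figure D1:**
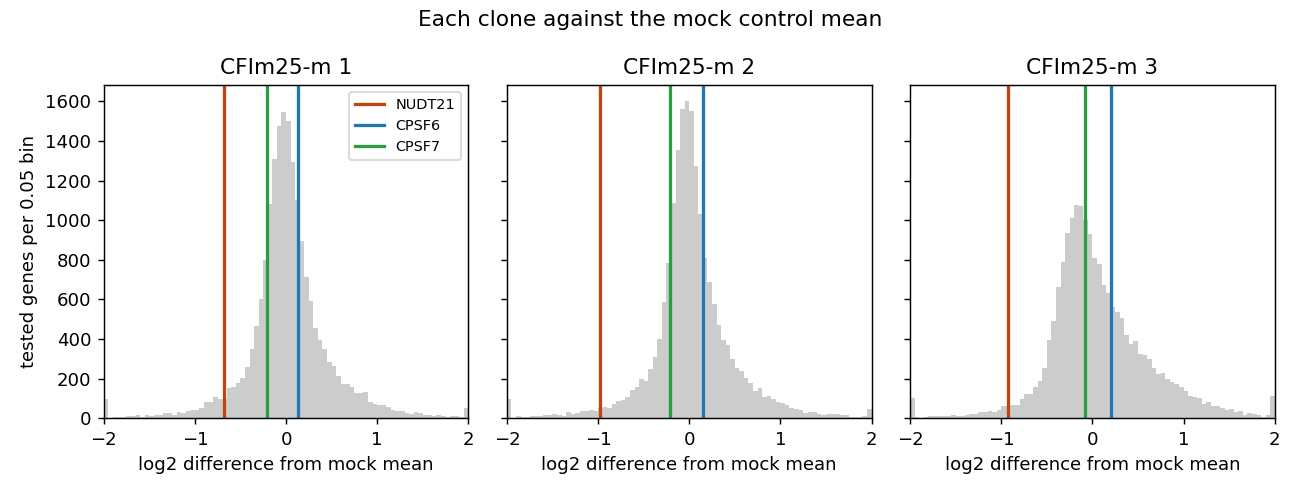
Histograms of the log2 difference from the mock control mean (horizontal axis) for the tested genes in bins of 0.05 (vertical axis, gene count) in each CFIm25-m clone, with values beyond 2 in size placed in the end bins and vertical lines for NUDT21 (red), CPSF6 (blue) and CPSF7 (green). NUDT21 lies at -0.68, -0.98 and -0.92, and both large subunits lie within 0.21 of 0.

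Within each sample, the subunits were also compared by their ratio, which does not depend on the size factors. The log2 ratio of CPSF6 to NUDT21 normalized counts was -0.32 and -0.30 in the mock controls against 0.49, 0.81 and 0.81 in the CFIm25-m clones 1, 2 and 3. It was higher by 1.02 in CFIm25-m, a fold of 2.02. The log2 ratio of CPSF7 to NUDT21 was -1.39 and -1.33 in the mock controls against -0.89, -0.59 and -0.52 in the clones, higher by 0.69, a fold of 1.62. Between the large subunits, the log2 ratio of CPSF7 to CPSF6 was -1.07 and -1.03 in the mock controls against -1.39, -1.40 and -1.33 in the clones. The difference was -0.32, a fold of 0.799, with SDs of 0.03 and 0.04 among mock controls and clones. That spread was close to the counting error of the ratio, which was between 0.034 and 0.038 on the log2 scale. The spread of the ratios to NUDT21 among the clones, 0.18 for CPSF6 and 0.20 for CPSF7, was larger than their counting error of at most 0.038. In each of the 3 pairs the groups did not overlap. For the 2 pairs with CPSF6 this follows from the single genes, since CPSF6 was higher and the other subunits lower in every clone. Single genes separated in 36.8% of tested genes, and the share over other pairs of genes was not counted. The 3 ratios share genes, so they are not separate results. The exact two-sided permutation test gave p = 0.1 for each pair (0.1 also after Benjamini-Hochberg adjustment over the 3 pairs), the smallest that the 10 arrangements of 2 against 3 samples can give, so no ratio could pass 0.05.

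Levels were compared between the genes only per length, as normalized count per kb of the deposited gene model, which is 5954 bases for NUDT21, 8082 for CPSF6 and 6036 for CPSF7. In mock control the level of NUDT21 was 1083 ± 12.4 per kb (SD, n = 2), that of CPSF6 643 ± 1.81 and that of CPSF7 416 ± 7.01. This order was NUDT21, CPSF6, CPSF7, with no overlap between neighbours. NUDT21 ranked above 96.0% of tested genes, CPSF6 above 92.5% and CPSF7 above 87.7%, so all 3 are abundant mRNAs in these cells. In CFIm25-m the level was 600 ± 68.1 per kb for NUDT21 (SD, n = 3), 717 ± 18.8 for CPSF6 and 371 ± 18.6 for CPSF7. CPSF6 then came first in each clone, since it lay between 703 and 738 per kb and NUDT21 between 551 and 678.

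The level of NUDT21 mRNA was close to the summed level of both large subunit mRNAs in mock control, and lower in the clones. The ratio of NUDT21 to CPSF6 plus CPSF7, all per kb, was 1.04 and 1.01 in mock control replicates 1 and 2, against 0.638, 0.514 and 0.505 in the CFIm25-m clones 1, 2 and 3. The sum of the large subunits lay between 1055 and 1062 per kb in mock control, against 1063 to 1131 in the clones. Within that sum CPSF6 made up 60.4% to 61.1% in mock control and 65.3% to 66.4% in the clones. The order of levels depended on the length used. With the length of the MANE Select transcript (4393, 6584 and 3487 bases for NUDT21, CPSF6 and CPSF7), NUDT21 lay between 747 and 919 per kb in the clones and overlapped CPSF6, between 862 and 907. The ratio to the large subunits was then 0.974 ± 0.018 in mock control and 0.535 ± 0.072 in CFIm25-m. These are mRNA levels summed over all transcripts of a gene, of which the GENCODE release v44 on GRCh37 lists 3 coding ones for NUDT21, 4 for CPSF6 and 13 for CPSF7. They hold no information on protein, on the edited alleles or on transcript ends, and in bulk RNA fewer cells with a transcript and less of it per cell cannot be told apart.

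The subunits also differ in how often their own 3′ untranslated regions hold the letters that CFIm25 binds, TGTA in DNA and UGUA in RNA. On the transcribed strand of the MANE Select transcripts, the 3′ untranslated region of NUDT21 (3579 bases) held 30 TGTA, that of CPSF6 (4850 bases) 49 and that of CPSF7 (1981 bases) 4, overlaps counted. This is 8.38, 10.1 and 2.02 per kb, against a median of 4.94 over 17672 MANE Select transcripts with at least 100 bases of 3′ untranslated region. The last 100 bases of each of the 3 transcripts held 1 TGTA, as 54.6% of those transcripts held at least 1. A match describes the letters and not a bound site.

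The other genes of the 3′ processing machinery gave no call. The list held 17 genes: those of the cleavage and polyadenylation specificity factor, the scaffold SYMPK, the cleavage stimulation factor, cleavage factor IIm, the poly(A) polymerases PAPOLA and PAPOLG, the poly(A) binding protein PABPN1 and the cofactor RBBP6. All 17 passed the filter, and 0 passed the threshold in limma-trend, against 1.88% of tested genes. Likewise 0 passed in edgeR's quasi-likelihood test and 0 in DESeq2. At an unadjusted p below 0.05 there were 3 in limma-trend, PCF11, WDR33 and CLP1, against 15.1% of tested genes. The median log2 fold change of the 17 genes was -0.12, beside -0.01 over all tested genes, and 14 of 17 had a negative value. With reads scaled by library total the median was -0.05, beside 0.06 over all tested genes, and 11 of 17 were negative. In 8 of 17 every clone lay below both mock controls, beside a smaller share of 19.8% of tested genes, and in 0 above. Separation in either direction was thus held by 8 of 17, beside 36.8% of tested genes.

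Within this list the lowest log2 fold change belonged to PCF11, a subunit of cleavage factor IIm that also acts in transcription termination. Its normalized count was 1478 and 1463 in the mock controls against 1262, 1117 and 1054 in the clones, a log2 fold change of -0.37 (95% interval -0.60 to -0.13, adjusted p = 0.131, limma-trend). All clones lay below both mock controls. The highest belonged to CPSF4, the zinc finger subunit CPSF30, at 1797 and 1924 in the mock controls against 1867, 1904 and 1965 in the clones, where the groups overlapped. Its log2 fold change was 0.04 (95% interval -0.16 to 0.24, adjusted p = 0.867, limma-trend). The interval of NUDT21, which ended at -0.62, lay wholly below that of each of these 17 genes.

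Of the proteins known to meet CFIm, none had a called gene. FIP1L1 is the contact of the large subunits in the polyadenylation machinery, and its log2 fold change was -0.14 (95% interval -0.40 to 0.11). TNPO3, the importin that carries CFIm68 and other arginine- and serine-rich proteins into the nucleus, stood at 4282 and 4280 in the mock controls against 3990, 4084 and 3419 in the clones, a log2 fold change of -0.16 (95% interval -0.39 to 0.06, adjusted p = 0.481, limma-trend). LEO1, a subunit of the PAF1 elongation complex that the study examined together with CFIm25, stood at 802 and 762 in the mock controls against 681, 616 and 681 in the clones. The log2 fold change of LEO1 was -0.25 (95% interval -0.48 to -0.01), with an adjusted p of 0.303 from limma-trend. Every clone lay below both mock controls in FIP1L1, TNPO3 and LEO1 alike, beside 19.8% of tested genes with every clone lower. For PAPOLA, the main nuclear poly(A) polymerase, the log2 fold change was 0.03 and the groups overlapped. Of these 4 genes 0 passed the threshold in limma-trend, edgeR or DESeq2, beside 1.88% of tested genes in limma-trend. An unadjusted p below 0.05 in limma-trend was held by 1, LEO1, beside 15.1% of tested genes.

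In the coordinates of the deposited table, which are those of GRCh38, NUDT21 (ENSG00000167005) lies on the minus strand at chr16:56429133-56452199, CPSF6 (ENSG00000111605) on the plus strand at chr12:69239537-69274358 and CPSF7 (ENSG00000149532) on the minus strand at chr11:61402641-61430031. The deposited end of NUDT21 lies 867 bases past its RefSeq span in GRCh38.p14. This stretch brings it over OGFOD1, a prolyl hydroxylase gene on the opposite strand, for 710 bases at chr16:56451490-56452199. In RefSeq 191 bases separate the genes. Reads from the shared stretch cannot be told apart without strand, and whether counting used strand was not stated. OGFOD1 had values of 1365 and 1326 in the mock controls against 1325, 1621 and 1200 in the clones, which overlapped. CPSF7 contains AP003108.4 on its own strand, with a normalized count of at most 8.07 in any sample, and overlaps AP003108.2 on the other strand, at most 29.7. No pseudogene named after a subunit was listed.

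The neighbours of the edited gene within 100 kb had no call. Of the 6 listed genes in that distance, 5 were tested, among them GNAO1, AC009102.2, OGFOD1 and BBS2. Of these 0 passed the threshold in limma-trend, edgeR or DESeq2, beside 1.88% of all tested genes in limma-trend. An unadjusted p below 0.05 in limma-trend was held by 0 of them, beside 15.1% of all tested genes. Their log2 fold changes lay between -0.33 for GNAO1 and 0.03 for OGFOD1. Around CPSF6, 1 of 4 neighbours was tested, YEATS4, at a log2 fold change of -0.20 (limma-trend, adjusted p = 0.494). Around CPSF7, 11 of 15 were tested, and 0 passed in limma-trend or edgeR and 1, CYB561A3, in DESeq2. Over all genes DESeq2 called 279 as lower and 349 as higher. CYB561A3 was also the only one of the 11 with an unadjusted p below 0.05 in limma-trend. CYB561A3, 40342 bases from CPSF7, stood at 280 and 283 in the mock controls against 362, 415 and 462 in the clones (log2 fold change 0.54 with an adjusted p of 0.0898 from limma-trend).

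Farther from NUDT21, metallothionein genes, which encode small metal-binding proteins, made up all of the limma-trend calls within 1000000 bases. This group was described after its values were seen. Among the 31 tested genes in that window, 7 passed the threshold as lower and 0 as higher, beside 0.936% and 0.941% of all tested genes. All 7 were metallothioneins between 156000 and 230225 bases away. MT2A, the nearest, stood at 717 and 730 in the mock controls against 214, 185 and 136 in the clones, giving a fitted change of -2.04 in log2 units (limma-trend, adjusted p = 0.000731). MT1L, the remaining metallothionein tested, had the same log2 fold change at low counts (19.6 and 18.3 against 7.02, 6.30 and 0.962) and an adjusted p of 0.174. The other 23 genes in the window included BBS2 and NUP93, which flank the cluster. Of these 0 passed the threshold in limma-trend or edgeR and 1, MMP2, in DESeq2, while 3 had an unadjusted p below 0.05 in limma-trend, and their median log2 fold change was -0.03. The metallothioneins are closely alike in sequence, so reads may have been split among them in counting. They were called in 6 of 8 by DESeq2, in 7 of 8 by edgeR and in 3 of 8 by limma without its trend, each as lower. Over all genes the calls as lower and higher were 279 and 349 by DESeq2, 174 and 174 by edgeR, and 25 and 21 by limma without its trend. Within the same distance 0 of 15 tested genes around CPSF6 and 0 of 37 around CPSF7 were called in limma-trend or edgeR, and 0 and 6 of them had an unadjusted p below 0.05 in limma-trend, beside 15.1% of tested genes. DESeq2 called none around CPSF6 and CYB561A3 around CPSF7. Whether the fall of NUDT21 and of its neighbours in this window are related was not tested.

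The genes whose profile over the 5 samples was most like that of each subunit were found by the root mean square difference of the log2 values, each centred on its own mock control mean. For NUDT21 these were AC008115.3, MGC12916 and XK, with differences of 0.068, 0.076 and 0.086. They are of far lower abundance, and XK stood at 138 and 135 in the mock controls against 92.2, 76.5 and 74.1 in the clones. None of the 3 passed the threshold in limma-trend, with adjusted p between 0.0934 and 0.230, while all 3 had an unadjusted p below 0.05. They were picked for likeness to a called gene, so these p-values are no separate result. Only 9 tested genes came within 0.1 of the NUDT21 profile. For CPSF6 the closest were GRIK5, RPS6KA6 and SKA3, with differences of 0.021, 0.022 and 0.023, and 1003 tested genes came within 0.1. For CPSF7 they were KIF18B, DTX2 and ZNF207, with differences of 0.011, 0.013 and 0.014, and 1377 genes came within 0.1. Whether these counts follow the size of change was not tested. Many tested genes had changes as small as those of the large subunits, and far fewer had changes as large as that of NUDT21. The counts were not compared with those of other genes with changes of like size.

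The libraries held between 18754108 and 23372391 reads. The pluripotency markers of the labelled cell type were abundant, with POU5F1, SOX2, NANOG, LIN28A and DNMT3B summing to 152643 to 155990 in mock control, against 126531 to 138221 in CFIm25-m. None of the 5 was called in limma-trend, edgeR or DESeq2, beside 1.88% of tested genes in limma-trend. LIN28A and DNMT3B had an unadjusted p below 0.05 in limma-trend, as had 15.1% of tested genes. The markers did not share a direction, since POU5F1 had a log2 fold change of 0.21, while the other 4 had log2 fold changes between -0.41 and -0.21. Values were higher in every clone for POU5F1 and lower in every clone for NANOG, LIN28A and DNMT3B, while SOX2 overlapped. Separation in either direction was held by 36.8% of tested genes. Of the 7 germ layer markers PAX6, SOX1, TBXT, MIXL1, SOX17, GATA4 and FOXA2, none exceeded 29.8 in any sample. Of 5 fibroblast markers DCN and LUM were at most 2.31, while COL1A1, COL1A2 and PDGFRB were expressed, and the list summed to 9810 to 10337 in mock control, against 7727 to 9211 in CFIm25-m. Of the 3 expressed fibroblast markers 0 were called in limma-trend or edgeR and 1, COL1A1, in DESeq2, which called 279 genes as lower and 349 as higher. All 3 had an unadjusted p below 0.05 in limma-trend, beside the same 15.1% of tested genes. They went opposite ways. The log2 fold change was -0.42 for COL1A1, which makes up most of the sum, against 0.34 for COL1A2 and 0.48 for PDGFRB. COL1A1 had lower values in every clone, and COL1A2 and PDGFRB had higher values in every clone, beside the same 36.8% of tested genes. The part of the pluripotency and fibroblast sums in the subunit values was not tested.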

How the data were processed

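Poly(A+) RNA was sequenced as paired-end reads. The authors deposited 1 table of normalized counts, a signal made by scaling each sample's read counts per gene by its size factor. The submitters' processing notes name HISAT2, featureCounts of Subread, DESeq2 and hg38. The annotation release and the use of strand in counting are not given in the sources used here. The deposited gene length served for levels per kb. Deposited group means, fold changes and p-values were not used.

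Samples were grouped by their labels. Each column was divided by its smallest value above 0, which gave whole reads for 100% of values (tolerance 1e-06). Log2(value + 1) was tested with limma 3.58.1 in R 4.3.3 (mean-variance trend, 2 mock control against 3 CFIm25-m) over 19232 genes with at least 10 in at least 2 samples, with Benjamini-Hochberg adjustment and a threshold of 0.05. Fold changes are on this scale. The test was also run on simulated counts, with the same dispersion in both groups. That run does not cover the wider spread of the subunits among the clones than between the mock controls. The recovered reads were tested with edgeR 4.0.16 and with DESeq2 1.42.0 as alternatives, and further fits used other scalings, filters or pseudocounts, a block for the replicate number, or 1 sample fewer. Intervals are 95%.

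The subunits, lists and tests were chosen with earlier results of these data known. Besides the subunits, the rule named called genes and the extremes of the 3′ processing list, genes within 100000 bases of a subunit, pseudogenes named after one, and the 3 closest profiles. The result for 1 neighbouring gene is not reported here. Other named genes came from the lists or were chosen after their values were seen. Same-numbered clones are different clones, and their deviations from group means had correlations of 0.007 and 0.018, so samples were not paired. Coordinates of guides and transcripts are GRCh37, and those of genes are as deposited.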

Additional observations from a re-analysis of the deposited data

How the results depend on the processing

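The log2 fold changes of CPSF6 and CPSF7 kept their direction and stayed short of the threshold in all 15 alternatives, at 0.14 to 0.23 and -0.21 to -0.10, and none of the 3 ratios between subunits reversed in its 7 alternatives. NUDT21 stayed negative in all 15, at -0.95 to -0.79, but did not pass the threshold with limma without its trend (-0.86, adjusted p = 0.106) or without either mock control. Leaving out each sample gave -0.95 to -0.80 for NUDT21. Its adjusted p was 0.00517 by edgeR's quasi-likelihood test and 1.01e-09 by DESeq2. Over all 15 alternatives it ran from 2.64e-13, in the limma fit with the replicate block, to 0.106, in limma without its trend. In the replicate block fit NUDT21 was at -0.83, CPSF6 at 0.14 and CPSF7 at -0.21 (adjusted p = 0.0507, limma). The block leaves CFIm25-m replicate 3 without a mock control of its number, so these log2 fold changes equal those without it, while the adjusted p of CPSF7 without it was 0.0886 (limma). The numbers do not pair the clones. Genes called lower and higher numbered 180 and 181, against 25 and 21 without the trend, 279 and 349 by DESeq2, 1064 and 1043 with the replicate block, and 33 to 524 and 31 to 520 with a sample left out, the extremes being without mock control replicates 2 and 1 and without CFIm25-m replicate 3. Genes of 3′ processing called were 2 with the replicate block, PCF11 (log2 fold change -0.31) and WDR33 (-0.24), and 0 in the other 14 alternatives. The alternative transcript length, chosen after seeing the data, moved the level ratio of NUDT21 to the large subunits from 1.02 to 0.974 in mock control. The counting error of a subunit's value was at most 2.16%, and between the mock controls CPSF6 and CPSF7 varied by less than their counting error.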
